A study of Mus musculus with 4 samples.

Results

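The liver RNA of mice lacking the RNA-editing enzyme ADAR2 was examined for 10 genes of bile acid synthesis, sensing and transport, taken by name from a table of 25655 genes. They were Cyp7a1, Cyp8b1, Cyp27a1, Cyp7b1 and Cyp2c70 (hydroxylases of bile acid synthesis), Baat (conjugation), Nr1h4 and Nr0b2 (the nuclear receptors FXR and SHP), Abcb11 (the bile salt export pump BSEP) and Slc10a1 (the bile acid uptake carrier NTCP). All 10 were in the table and all passed the filter on low counts, which left 12967 genes for testing. ADAR2 converts adenosine to inosine in RNA, and the study asked how its loss affects fatty liver under a high-fat diet (HFD). The HFD-WT group had the genotype ADAR2+/+ and the HFD-KO group ADAR2-/-, each with 2 libraries. Both groups carried GluR-B R/R, an allele that supplies the edited form of a glutamate receptor subunit, so the controls were not wild type at that locus. Mice were on a B6129S background and were put on the HFD at 5 weeks of age for 12 weeks. After its first tests in both sexes the study turned to male mice. Whether a library holds 1 mouse or a pool is not given in the sources used here, although the study counts more mice per group for this experiment than there are libraries, and neither are the hour of collection and the feeding state, so p-values measure only the spread between these libraries.

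Bile acids are made from cholesterol in hepatocytes. In the classic route CYP7A1 takes the first and rate-limiting step and CYP8B1 adds the hydroxyl group that directs the product to cholic acid, while in the alternative route CYP27A1 oxidizes the side chain and CYP7B1 hydroxylates the resulting oxysterols. In mice CYP2C70 makes the muricholic acids. BAAT joins bile acids to taurine or glycine, BSEP pumps them into bile and NTCP takes them up again from portal blood. FXR, activated by bile acids, induces SHP and BSEP, and SHP lowers transcription of Cyp7a1 and Cyp8b1. A signal from the intestine, FGF15, acts on the hepatocyte receptor FGFR4 with its partner β-Klotho and lowers Cyp7a1 as well.

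None of the 10 genes passed an adjusted p of 0.05 between the genotypes (edgeR quasi-likelihood test, Benjamini-Hochberg adjustment over all genes tested), where 0.0771% of all genes tested did. At an unadjusted p under 0.05, Cyp7b1 and Slc10a1 were higher in HFD-KO livers, so 2 of 10, beside 4.25% of all genes, and 0 of 10 were lower, beside 4.73%. The same 2 genes had both HFD-KO libraries above both HFD-WT libraries, which held for 20.5% of all genes, and 0 of 10 had the reverse, which held for 20.3%. With library size alone as scaling, the split over all genes was 345 higher and 894 lower instead of 551 and 613, and Slc10a1 no longer passed the unadjusted threshold. The median log2 fold change was 0.23 over the 10 genes and 0.0068 over all genes. Of the 10 values 8 were positive and 2 negative, beside 6685 positive and 6282 negative over all genes. Some of the 8 changed sign with a library left out, as given below. Since RNA was taken from whole liver, fewer cells of a type and less RNA per cell cannot be told apart.

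The table gave 28691330 and 26907857 reads for HFD-WT replicates 1 and 2 and 26540624 and 24480798 for HFD-KO replicates 1 and 2. Adarb1, the gene of ADAR2, had 15.7 and 19.8 CPM (read counts relative to the library total, scaled by TMM) in HFD-WT and 6.23 and 9.54 CPM in HFD-KO, a log2 fold change of -1.17 (SE 0.20, adjusted p = 0.159 by edgeR), with both knockout libraries below both controls. Reads over Adarb1 were thus lower, as the labels say, without reaching 0, and which exons they cover was not analysed here. The 2 HFD-KO libraries differed more from each other than the 2 HFD-WT libraries (chi-square over degrees of freedom 43.4 and 10.9, where counting error alone gives 1). Hepatocyte markers were abundant, the 7 of 8 found in the table (Alb, Apoa1 and others) summing to between 74235 and 89500 CPM. Of 8 intestinal markers, Fabp6, Cdx2 and Fgf15 had 0 reads in every library, Vil1 and Muc2 were below the filter, and Fabp2 (119 to 127 CPM), Lgals4 (22.8 to 27.1 CPM) and Slc5a1 (0.794 to 1.51 CPM) were present in every library. Each library held reads of Y-linked genes at close levels (Ddx3y 34.0 to 38.6 CPM), a check added after the values were seen.

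The sequences before the start sites of 4 of these genes hold letter matches to known binding motifs. They are taken from RefSeq on GRCm38.p6, a build other than that of the table's positions, and each gives the 250 bases before the start, 5′ to 3′ on the gene's strand. RefSeq windows were matched for 7 of the 10 genes (8 windows, since Slc10a1 has 2), and not for Cyp7a1, Cyp7b1 and Baat. Capitals mark matches, on either strand, to the HNF4A motif CAAAGTCCA in Cyp8b1 and Cyp2c70, to the LRH-1 (NR5A2) motif TCAAGG and the E-box CACGTG in Nr0b2, and to the FXR inverted repeat AGGTCANTGACCT with up to 2 mismatches in Abcb11.
Cyp8b1, chr9:121916306-121916555, minus strand: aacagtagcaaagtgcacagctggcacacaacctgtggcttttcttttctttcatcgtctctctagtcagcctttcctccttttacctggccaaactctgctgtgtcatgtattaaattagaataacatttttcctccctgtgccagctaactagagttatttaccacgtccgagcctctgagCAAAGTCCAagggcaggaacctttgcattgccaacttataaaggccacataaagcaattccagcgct
Cyp2c70, chr19:40187287-40187536, minus strand: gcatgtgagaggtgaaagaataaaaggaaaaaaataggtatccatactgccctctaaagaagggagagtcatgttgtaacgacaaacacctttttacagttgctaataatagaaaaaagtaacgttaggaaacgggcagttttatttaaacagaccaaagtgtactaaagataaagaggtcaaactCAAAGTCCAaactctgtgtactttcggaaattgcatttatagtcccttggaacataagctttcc
Nr0b2, chr4:133553126-133553375, plus strand: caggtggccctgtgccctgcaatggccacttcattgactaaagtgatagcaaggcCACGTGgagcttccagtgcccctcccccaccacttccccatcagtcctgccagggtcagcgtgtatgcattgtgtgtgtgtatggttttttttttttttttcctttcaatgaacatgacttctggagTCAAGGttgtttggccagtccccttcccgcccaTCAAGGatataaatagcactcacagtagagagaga
Abcb11, chr2:69342617-69342866, minus strand: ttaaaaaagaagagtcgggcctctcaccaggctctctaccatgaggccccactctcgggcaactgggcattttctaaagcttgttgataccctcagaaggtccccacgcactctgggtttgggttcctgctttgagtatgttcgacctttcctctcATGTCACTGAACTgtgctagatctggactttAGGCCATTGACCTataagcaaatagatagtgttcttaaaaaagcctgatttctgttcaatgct

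The HNF4A motif was present in 0.384% of 32851 RefSeq windows of this length. In Cyp8b1 it lay 67 to 59 bases and in Cyp2c70 64 to 56 bases before the start. The LRH-1 motif was present in 12.5% of windows and occurred at 68 to 63 and at 35 to 30 bases in Nr0b2, and the E-box, in 6.02% of windows, at 195 to 190 bases. The FXR repeat was present in 0.959% of windows. Abcb11 held it at 63 to 51 bases with 1 mismatch and, less closely, at 94 to 82 bases with 2 mismatches. The windows of Cyp27a1, Nr1h4 and Slc10a1 held none of these motifs. A match is a description of the letters, and binding was not measured.

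Per transcript length, the 10 genes spanned more than a factor of 10 in HFD-WT livers. In TPM (the deposited values scaled by length), Cyp8b1 was the most abundant at 565 and 565, followed by Slc10a1 at 442 and 441 and Cyp27a1 at 451 and 420. Baat had 244 and 236 TPM, Nr1h4 120 and 122, Abcb11 117 and 96.0, and Cyp2c70 119 and 88.9. Nr0b2 had 70.4 and 65.7 TPM, Cyp7a1 61.9 and 46.2, and Cyp7b1, the least abundant, 40.0 and 40.9. Over all 4 libraries the ranges of Slc10a1 and Cyp27a1, of Nr1h4, Abcb11 and Cyp2c70, and of Nr0b2, Cyp7a1 and Cyp7b1 overlapped between neighbours, while Cyp8b1, Baat and the boundary between Cyp2c70 and Nr0b2 were separate from the next gene. The enzyme of the rate-limiting step was thus near the bottom of this order at the RNA level and the cholic acid enzyme at the top.

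**Figure D1:**
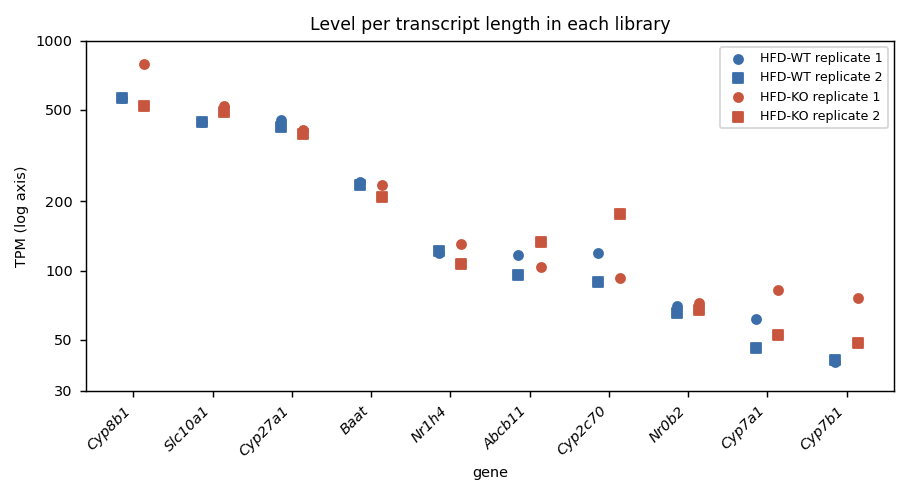
Deposited TPM of the 10 genes (log axis) in each of the 4 libraries, ordered by the HFD-WT mean; circles are replicate 1 and squares replicate 2, blue HFD-WT and red HFD-KO. Cyp8b1 lies at the top at 565 TPM in HFD-WT, Cyp7b1 at the bottom at 40.0 and 40.9, and the HFD-KO libraries are furthest apart for Cyp8b1, Cyp2c70, Cyp7a1 and Cyp7b1.

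Among the enzymes of the alternative route, Cyp7b1 (chromosome 3, 18126114 to 18297502, minus strand, positions here and below as in the table, on GRCm39) showed the largest difference of the 10 genes. It had 43.5 and 43.4 CPM in HFD-WT and 86.8 and 53.4 CPM in HFD-KO. Both knockout libraries lay above both controls, and they were further apart from each other than the lower of them was from the controls. The log2 fold change was 0.69 (SE 0.20, 95% interval 0.22 to 1.16), or 1.62-fold, with an unadjusted p of 0.0097 and an adjusted p of 0.378 by edgeR, and the adjusted p was 0.0497 by DESeq2. HFD-KO replicate 1 was 2.00 times the HFD-WT mean and replicate 2 was 1.23 times. Cyp27a1, the mitochondrial side-chain oxidase that precedes it (chromosome 1, 74752733 to 74777051, plus strand), had 428 and 389 CPM in HFD-WT and 407 and 379 CPM in HFD-KO. The groups overlapped, with a log2 fold change of -0.06 (95% interval -0.28 to 0.16).

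In the classic route both enzymes had 1 high knockout library. Cyp7a1 (chromosome 4, 6265612 to 6275633, minus strand) had 130 and 94.4 CPM in HFD-WT and 181 and 112 CPM in HFD-KO, so that HFD-KO replicate 2 lay between the controls. Its log2 fold change was 0.39 (SE 0.23, 95% interval -0.15 to 0.92, adjusted p = 0.672 by edgeR). Cyp8b1 (chromosome 9, 121743422 to 121745371, minus strand) had 554 and 540 CPM in HFD-WT, 814 CPM in HFD-KO replicate 1 and 520 CPM in replicate 2. Replicate 1 was 1.49 times the HFD-WT mean, while replicate 2 was 0.951 times it and the lowest of the 4, and the log2 fold change was 0.29 (SE 0.19, 95% interval -0.16 to 0.73, adjusted p = 0.699 by edgeR).

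Cyp2c70 and Baat act later, on the steroid core and on the finished acid. For Cyp2c70 (chromosome 19, 40141797 to 40175777, minus strand) the HFD-KO libraries stood the other way round, with 83.9 CPM in replicate 1 and 155 CPM in replicate 2, beside 103 and 74.8 CPM in HFD-WT. Replicate 1 lay within the range of the controls and replicate 2 was 1.74 times their mean. The log2 fold change was 0.42 (SE 0.27, 95% interval -0.21 to 1.06, adjusted p = 0.695 by edgeR). Baat (chromosome 4, 49489422 to 49506557, minus strand) had 238 and 225 CPM in HFD-WT and 240 and 207 CPM in HFD-KO, with the controls inside the range of the knockouts and a log2 fold change of -0.05 (95% interval -0.28 to 0.18).

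The receptors differed little between group means, and their intervals bound the difference. Nr1h4, which encodes FXR (chromosome 10, 89290096 to 89369447, minus strand), had 139 and 138 CPM in HFD-WT and 157 and 126 CPM in HFD-KO, one knockout library above and one below the controls, and a log2 fold change of 0.04 (95% interval -0.23 to 0.30). Nr0b2, which encodes the repressor SHP (chromosome 4, 133280687 to 133283847, plus strand), had 40.0 and 36.4 CPM in HFD-WT and 42.9 and 39.2 CPM in HFD-KO. These ranges overlapped, and the 95% interval of its log2 fold change of 0.10 ran from -0.12 to 0.32.

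Of the carriers, Slc10a1 differed at an unadjusted p and Abcb11 did not. Slc10a1, the uptake carrier (chromosome 12, 80999957 to 81015479, minus strand), had 488 and 476 CPM in HFD-WT and 601 and 552 CPM in HFD-KO. Both knockout libraries were higher, by 1.25 and 1.15 times the HFD-WT mean, and the gap between the groups was wider than that within either. The log2 fold change was 0.26 (SE 0.091, 95% interval 0.05 to 0.47), or 1.20-fold, with an unadjusted p of 0.0234 and an adjusted p of 0.473 by edgeR. Abcb11, the export pump (chromosome 2, 69068626 to 69172960, minus strand), had 302 and 242 CPM in HFD-WT and 279 and 349 CPM in HFD-KO. HFD-KO replicate 1 lay between the controls, replicate 2 above both, and the log2 fold change was 0.21 (SE 0.14, 95% interval -0.13 to 0.54, adjusted p = 0.711 by edgeR).

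**Figure D2:**
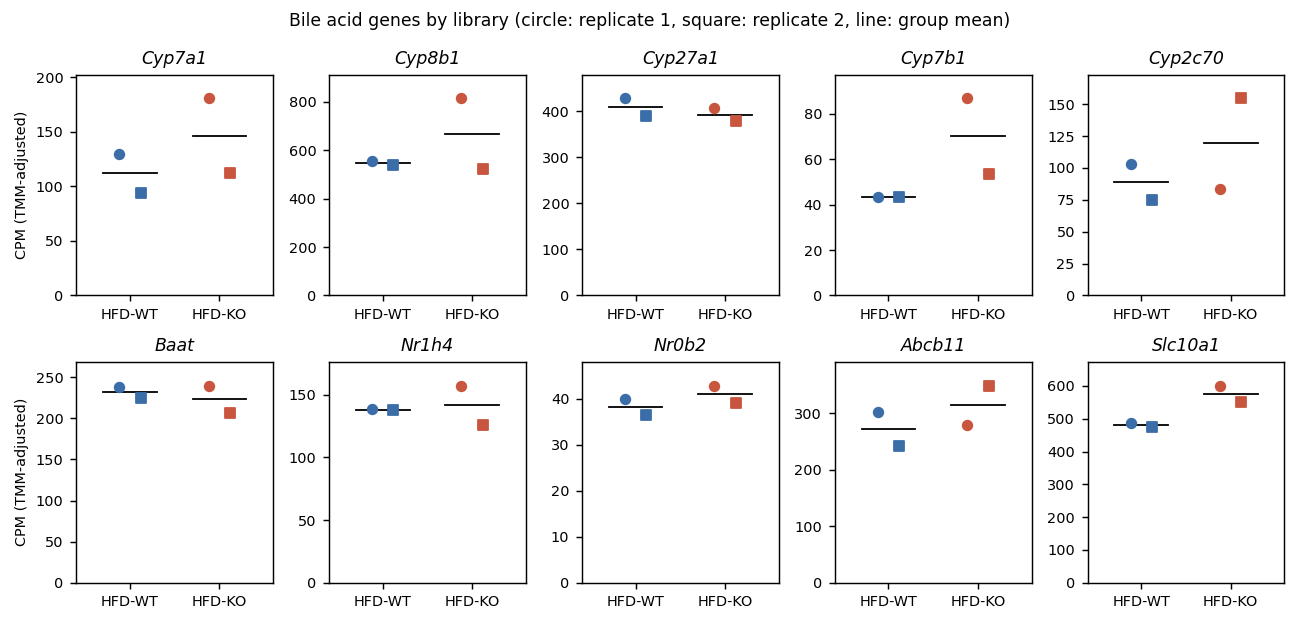
TMM-adjusted CPM of the 10 genes, one panel per gene with its own axis from 0; circles are replicate 1, squares replicate 2 and lines group means of 2 libraries. Cyp7b1 and Slc10a1 have both HFD-KO points above both HFD-WT points, and the HFD-KO points of Cyp7a1, Cyp8b1 and Cyp7b1 are high in replicate 1 while Cyp2c70 and Abcb11 are high in replicate 2.

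The spread between the knockout libraries was wide for 4 of the enzymes. HFD-KO replicate 1 was above replicate 2 by 1.62 times for Cyp7a1, 1.56 times for Cyp8b1 and 1.63 times for Cyp7b1, and replicate 2 was above replicate 1 by 1.84 times for Cyp2c70. Among 7620 genes of at least 10 CPM, 1.52%, 1.77%, 1.46% and 0.827% had a larger spread between the knockout libraries than these 4 genes in that order, where the median absolute log2 difference was 0.11. The HFD-WT libraries were close for Cyp8b1 and Cyp7b1, with absolute log2 differences of 0.04 and 0.0022, and far apart for Cyp7a1 and Cyp2c70, at 0.46 for each. Of the 10 genes 7 were highest in HFD-KO replicate 1, as were 23.98% of the 7620 genes, and 2 were highest in HFD-KO replicate 2.

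Leaving out a knockout library therefore decided the values of these genes. Without HFD-KO replicate 2 the log2 fold changes were 0.69 for Cyp7a1, 0.57 for Cyp8b1 and 0.998 for Cyp7b1, with adjusted p of 0.00033, 0.00012 and 2.8e-08 by edgeR. Without HFD-KO replicate 1 they were -0.0017, -0.071 and 0.30, none past the threshold, while Cyp2c70 came to 0.80 and Abcb11 to 0.36, with adjusted p of 1.5e-05 and 0.0372. These fits take their spread from the HFD-WT libraries and assume that the lone knockout library varies like them, and they called 411 and 705 of all genes. Leaving out a control library moved Cyp7a1 to 0.63 without replicate 1 and 0.18 without replicate 2, Cyp2c70 to 0.67 and 0.22, and Abcb11 to 0.37 and 0.06. Slc10a1 stayed between 0.20 and 0.32 in all 4 of these fits, a narrower range than that of Cyp7b1, 0.30 to 0.998.

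**Figure D3:**
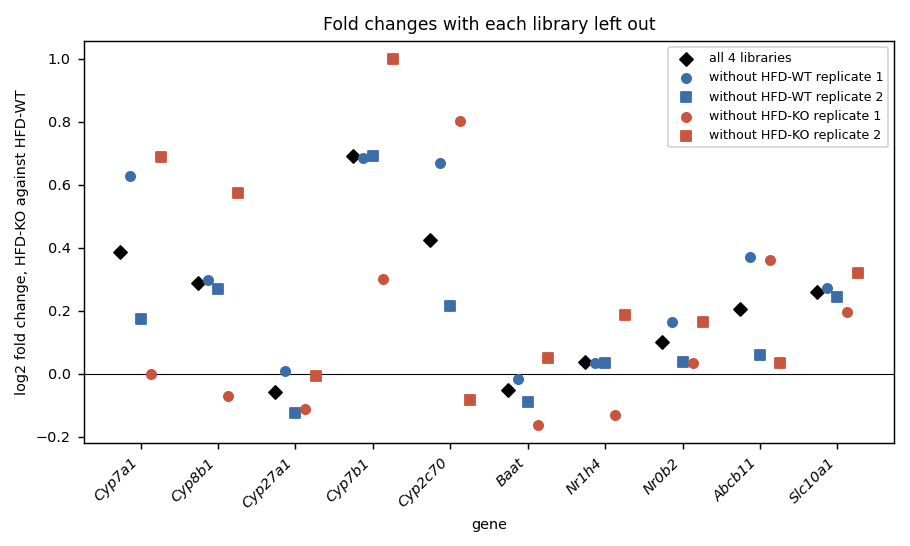
Log2 difference between the genotypes (HFD-KO relative to HFD-WT) for the 10 genes with all 4 libraries (black diamonds) and with each library left out (blue for a control, red for a knockout library). Red points lie far apart for Cyp7a1, from -0.0017 to 0.69, and for Cyp2c70, from -0.084 to 0.80, and close together for Slc10a1.

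Ratios within a library do not depend on the scaling between libraries. The TPM ratio of Cyp8b1 to Cyp7a1 was 9.13 and 12.2 in HFD-WT and 9.63 and 9.95 in HFD-KO, so the knockout libraries lay within the controls although both genes differed between them. The ratio of Cyp7b1 to Cyp7a1 was 0.645 and 0.886 in HFD-WT and 0.925 and 0.919 in HFD-KO, both knockout values above both controls, a mean log2 difference of 0.29 beside a pooled SD of 0.23. That difference was 0.058 without HFD-WT replicate 1 and 0.51 without HFD-WT replicate 2, so its size rested on single controls. The knockout libraries were thus nearly equal in this ratio although each gene differed between them. The ratio of Cyp27a1 to Cyp7a1 was 7.28 and 9.09 in HFD-WT and 4.97 and 7.46 in HFD-KO, and that of Abcb11 to Slc10a1 was 0.264 and 0.217 in HFD-WT and 0.198 and 0.270 in HFD-KO, with overlap in both. With 2 libraries against 2 the smallest exact two-sided permutation p is 0.333, so no test of these ratios was made.

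The other pathway genes, 52 in 4 hand-made lists without the 10, gave 47 that could be tested. Of these 4 were higher and 6 lower at an unadjusted p under 0.05, beside the 4.25% and 4.73% of all genes, and 1 passed the adjusted threshold. Their median log2 fold change was -0.02. Of 14 other synthesis enzymes tested, 0 passed in either direction, the log2 fold changes running from -0.19 to 0.29 with a median of 0.08. The most abundant, Scp2 (the peroxisomal thiolase and sterol carrier), Slc27a2 and Slc27a5 (the acyl-CoA synthetases that activate bile acid precursors and bile acids), had log2 fold changes of -0.04, 0.16 and 0.10.

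Both parts of the FGF15 receptor were higher at an unadjusted p among the 14 receptors and regulators tested, beside 4.25% of all genes. Fgfr4 had 32.4 and 33.4 CPM in HFD-WT and 39.5 and 40.8 CPM in HFD-KO, a log2 fold change of 0.29 (SE 0.080, unadjusted p = 0.0082, adjusted p = 0.369 by edgeR). Klb, which encodes β-Klotho, had 24.2 and 18.7 CPM in HFD-WT and 25.8 and 35.4 CPM in HFD-KO, a log2 fold change of 0.51 (SE 0.17, unadjusted p = 0.0200, adjusted p = 0.451 by edgeR). For Fgfr4 each group was tight, whereas for Klb the lower knockout library was close to the higher control. Nr1i2, which encodes the xenobiotic and bile acid sensor PXR, was lower, with 108 and 114 CPM in HFD-WT and 81.0 and 90.0 CPM in HFD-KO, a log2 fold change of -0.38 (unadjusted p = 0.0034, adjusted p = 0.271 by edgeR). The most abundant regulators were not past the threshold. Hnf4a, for whose motif Cyp8b1 and Cyp2c70 held a match, had a log2 fold change of -0.05, Rxra, the partner of FXR, -0.03, and Nr1i3 (the receptor CAR) 0.22. Gpbar1 and Fgf15 had 0 reads in every library, which allows up to 0.105 to 0.123 CPM by counting error.

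Slco1a1 was the only one of the 47 genes past the adjusted threshold. It encodes an organic anion carrier of the sinusoidal membrane and had 18.5 and 17.9 CPM in HFD-WT and 59.3 and 58.0 CPM in HFD-KO, a log2 fold change of 1.69 (SE 0.083, adjusted p = 0.0013 by edgeR). Without HFD-WT replicate 2 it was 1.67 and the adjusted p was 0.0736. Of the 15 carriers tested in its list, 4 were lower at an unadjusted p, beside 4.73% of all genes. Abcc4, a basolateral exporter of bile acids, had 3.28 and 4.87 CPM in HFD-WT and 1.82 and 2.59 CPM in HFD-KO (log2 fold change -0.89, unadjusted p = 0.0165). Slc10a2, the apical carrier that cholangiocytes also express, had 14.8 and 22.6 CPM in HFD-WT and 11.8 and 13.2 CPM in HFD-KO (log2 fold change -0.58, unadjusted p = 0.0188). Abcb1a, a multidrug exporter, and Slco1a4, a sinusoidal carrier in the same family as Slco1a1, had log2 fold changes of -0.50 and -0.23, with adjusted p of 0.462 and 0.516 by edgeR. The abundant carriers Slco1b2, Abcc2 and Abcc3 had 0.12, -0.07 and -0.15 and were not past the threshold, and Slc51a had 0 reads.

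Among 9 known FXR targets tested, Fetub was higher and Apoc2 lower at an unadjusted p, beside 4.25% and 4.73% of all genes. The other 7, Nr0b2 and Abcb11 among them, were not past it. Fetub, which encodes the plasma protein fetuin-B, had 366 and 323 CPM in HFD-WT and 425 and 534 CPM in HFD-KO (log2 fold change 0.48, adjusted p = 0.358 by edgeR). Apoc2, the cofactor of lipoprotein lipase, had 468 and 473 CPM in HFD-WT and 394 and 355 CPM in HFD-KO (log2 fold change -0.33, adjusted p = 0.367 by edgeR). Abcb4, the phospholipid exporter of bile, had a log2 fold change of 0.12. The 9 values had no common direction, 5 being positive and 4 negative, although 7 of them were not past the threshold. Slc51b, 1 of the negative values, had only 0.145 to 0.690 CPM.

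**Figure D4:**
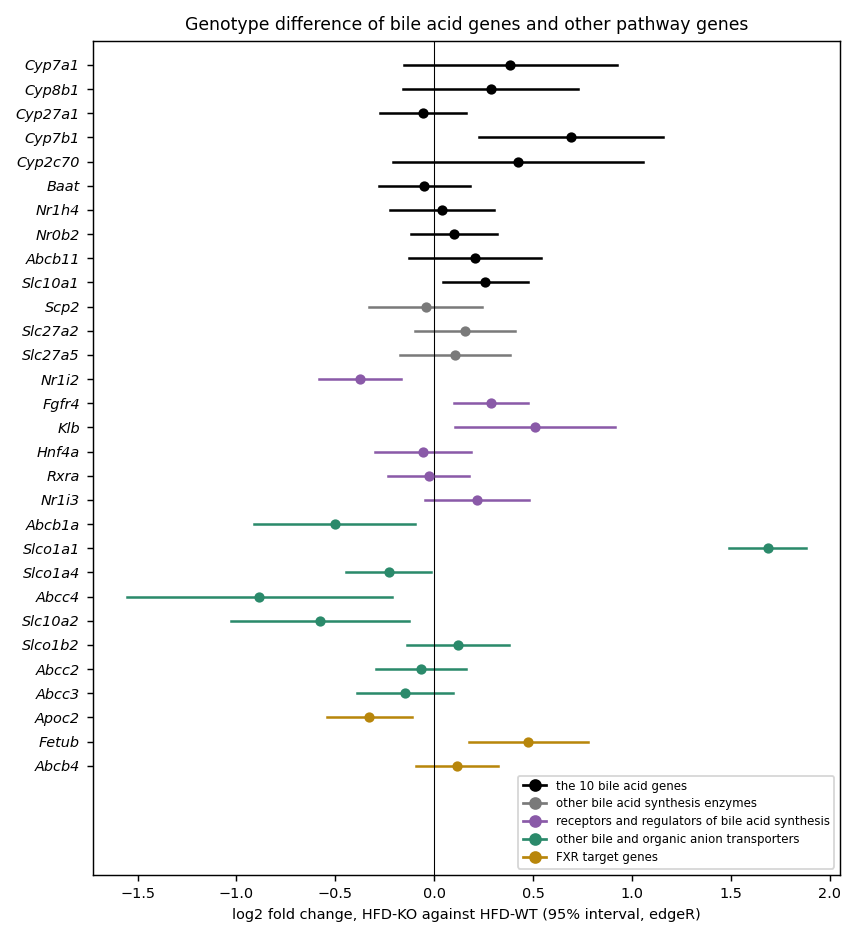
Log2 difference between the genotypes (HFD-KO relative to HFD-WT) with its 95% interval by edgeR for the 10 bile acid genes (black) and for the pathway genes named here (coloured by list). Slco1a1 lies apart at 1.69, Cyp7b1, Slc10a1, Fgfr4, Klb and Fetub have intervals above 0, and Nr1i2, Abcb1a, Slco1a4, Abcc4, Slc10a2 and Apoc2 have intervals below 0.

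Cyp7b1 and Slco1a1 belong to the genes that are known to be higher in male than in female mouse liver, and further genes of that kind were also higher at an unadjusted p. Of 12 male-biased genes, these 2 included, 5 were higher and 0 lower at an unadjusted p, beside 4.25% and 4.73% of all genes. Cyp7b1 and Slco1a1 were themselves 2 of the 5, and the list was drawn up with the result for Slco1a1 known. The other 7 of the 12 were not past the unadjusted threshold. Negative values were those of 3 of the 12, Ugt2b38 (-0.52), Mup20 (-0.30) and Cyp4a12a (-0.25), named here after their values were seen. Susd4 had 9.25 and 8.29 CPM in HFD-WT and 15.04 and 14.94 CPM in HFD-KO. Hsd3b5 had 0.483 and 0.472 CPM in HFD-WT, 25.8 CPM in HFD-KO replicate 1 and 2.51 CPM in replicate 2, the same knockout library being higher as for Cyp7b1. Of 7 female-biased genes tested, 2 were higher and 2 lower, beside the same shares of all genes. Cyp2a4 had 21.2 and 18.9 CPM in HFD-WT and 9.95 and 7.37 CPM in HFD-KO, whereas Acot3 had a log2 fold change of 0.59. The other gene counted as higher was Cux2, which encodes a repressor of male-biased genes, and it rested on 1 library. Cux2 had between 0.327 and 0.483 CPM in 3 libraries and 10.4 CPM in HFD-KO replicate 2. Cyp7b1 and Hsd3b5 were lower in that library than in the other knockout library. Slco1a1 (59.3 and 58.0 CPM) and Susd4 were close between the knockout libraries. The part of these genes in the values of Cyp7b1 was not tested.

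Cyp7a1 is known to follow the time of day, so circadian genes were examined too. Of 19 clock genes tested, 4 were higher and 2 lower at an unadjusted p, beside 4.25% and 4.73% of all genes. Nr1d1, which encodes the repressor REV-ERBα, had 82.8 and 73.3 CPM in HFD-WT and 116 and 100.2 CPM in HFD-KO, and Bhlhe40 had a log2 fold change of 0.33 and Ciart of -0.44. HFD-KO replicate 1 was the higher for Nr1d1, as for Cyp7a1. Replicate 2 was the higher for Bhlhe40 (129 and 143 CPM in HFD-KO replicates 1 and 2) and Ciart (14.3 and 15.3 CPM). The part of the hour of collection was not tested.

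Several markers of other liver cells were lower in HFD-KO livers at an unadjusted p. Over all genes, 4.73% were lower and 4.25% higher at that threshold. Of 8 macrophage and Kupffer cell markers, 5 were lower at an unadjusted p. The summed level of all 8 was 240 and 309 CPM in HFD-WT and 194 and 190 CPM in HFD-KO. Vsig4, Cd5l and Clec4f had log2 fold changes of -0.63, -0.62 and -0.43, while Marco had 0.46, the only positive value of the 8. Of 8 stellate cell markers, 4 were lower. The summed level of all 8 was 346 and 397 CPM in HFD-WT and 308 and 259 CPM in HFD-KO. Col1a1, Reln and Dcn had log2 fold changes of -0.87, -0.53 and -0.43, while Rgs5 (0.07) and Des (0.0082) had the positive values. Of 8 endothelial markers 1 was lower, Lyve1, at -0.70, and the summed level was between 249 and 283 CPM in all libraries. Of 7 cholangiocyte markers tested, Spp1 (-0.62) and Slc10a2 were lower, with a summed level of 99.96 and 127 CPM in HFD-WT and 88.2 and 78.5 CPM in HFD-KO. None of these 4 lists had a marker at 0 in all libraries. By zone, 1 of 8 pericentral markers was higher, Tbx3, at 0.59. The other 7 were not past the threshold, and the median of the 8 was 0.08. Of 8 periportal markers 2 were lower, Hsd17b13 and Sds, at -0.43 and -0.55. The other 6 were not past the threshold, and the median of the 8 was -0.06. Of the markers tested, 0 of 7 for hepatocytes and 0 of 3 for intestine passed. The part of these markers in the values of the 10 genes was not tested.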

How the data were processed

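Liver RNA was extracted with TRIzol, and libraries were prepared with a directional kit of MGI Tech and read as paired ends on a DNBSEQ-G400RS. The authors trimmed and aligned the reads with the alignment tool of MGI Tech and used Partek Genomics Suite and GENCODE annotation to quantify genes. The methods name mm10, the submitters' processing notes list GRCm39 and mm10, and the table's positions differ from GENCODE M21 on GRCm38 for 8 of the 10 genes, the other 2 being the same. Tool versions, the strand setting and the treatment of reads with several matches are not given in the sources used here. The authors' deposited counts are whole reads per gene without normalization, and they were tested here. The authors' deposited TPM and RPKM values divide the same counts by exon length, and TPM was used for levels between genes and for ratios. A deposited column labelled CPM is a score on an adjusted library size and was not used.

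Counts were fitted in R 4.3.3 with edgeR 4.0.16 (filterByExpr, TMM, quasi-likelihood test, two-sided, no covariate), with Benjamini-Hochberg adjustment over 12967 genes at a threshold of 0.05. The fit had a common biological coefficient of variation of 0.102 and 5.34 prior degrees of freedom. CPM values were computed from the counts on the TMM scale. Alternatives were DESeq2 1.42.0, limma-voom (limma 3.58.1), other scalings and filters, the replicate number as a block, and leaving out each library. The fit was also tried on simulated counts with known changes, where it missed some changed genes and called some unchanged ones. Figures and tables were made in Python 3.11.15 with numpy 2.4.6, pandas 2.3.3 and matplotlib 3.10.9. The smallest level a count of 0 allows was set at 3 reads, which covers counting error only.

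Groups and replicate numbers came from the sample labels. The 10 genes and the gene lists were chosen with earlier results of these data known. Genes named were all 10, Adarb1, from the 4 pathway lists every gene at an unadjusted p under 0.05 and the 3 with the highest CPM, and from the other lists up to 3 genes with the smallest p among those under 0.05. Marco, Des, Rgs5, Ugt2b38, Mup20 and Cyp4a12a were also named, after their values were seen, for going the other way. No gene was chosen for a similar pattern, since 4 libraries cannot rank likeness. Where genes are said to share the higher or lower knockout library, that is a description only.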

Additional observations from a re-analysis of the deposited data

How the results depend on the processing

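The 10 genes were fitted under 11 alternatives. Of these 110 values, 97 kept their direction and side of the adjusted threshold, 6 passed it and 7 changed sign. The number of the 10 genes at an adjusted p under 0.05 was 0, and it was 1 by DESeq2 (Cyp7b1) and 0 to 3 with a library left out. At an unadjusted p the number of higher genes was 2, and it was 1 with library size alone, 3 with no filter on low counts (Cyp7a1 added) and 1 to 4 with a library left out. The other pathway genes had 4 higher, or 2 to 10 with a library left out, and 6 lower, or 2 to 10. Values that changed sign were near 0 or rested on 1 library. With a library left out, the log2 fold change ran from -0.0017 to 0.69 for Cyp7a1, -0.071 to 0.57 for Cyp8b1, -0.12 to 0.0079 for Cyp27a1, -0.084 to 0.80 for Cyp2c70, -0.16 to 0.051 for Baat, -0.13 to 0.19 for Nr1h4, -0.12 to 0.031 for Scp2, -0.026 to 0.24 for Slc27a5, -0.17 to 0.051 for Hnf4a, -0.078 to 0.018 for Rxra, -0.15 to 0.017 for Abcc2 and -0.098 to 4.66 for Cux2. Nr1h4 was -0.0077 with library size alone. The cause of these changes beyond the library left out was not tested.

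The number of all genes at an adjusted p under 0.05 was 10, and it was 162 with no filter on low counts, 120 by DESeq2, 20 with the replicate block, 6 with library size alone and with a mean of at least 1 CPM, and 0 to 705 with a library left out. At an unadjusted p it was 1164, 671 by DESeq2, 462 without HFD-WT replicate 2 and 2173 without HFD-KO replicate 1, so the shares of all genes move with the library left out. Neither the labels nor the methods describe a pairing, and deviations of same-numbered libraries correlated at -0.087, so the libraries share only a number. With the replicate block 0 of the 10 genes passed the adjusted threshold and 3 were higher at an unadjusted p, Cyp7a1 being the gene added (log2 fold change 0.36). With 2 libraries per group, small differences can go undetected. The intervals given with each gene are unadjusted and do not mark the smallest difference that the adjusted test can call. Cyp7b1 and Slc10a1 had intervals above 0 and did not pass the adjusted threshold in the main fit.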
